A study of Mus musculus with 24 samples.

Results

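The genes described here carry out steps by which the pancreatic beta cell senses glucose and releases insulin. The set had 8 members, taken by gene symbol or RefSeq accession from the array's own annotation: Slc2a2, G6pc2, Abcc8, Kcnj11, Slc30a8, Glp1r, Ffar1 and Ucn3. They are 8 of 18085 gene names whose probes were bright enough to test, and all 8 passed that filter, although Ffar1 was dim. Slc2a2 and Abcc8 each had 2 probes and the other members 1 each.

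Islets came from female NOD/LtJ (NOD) mice, in which autoimmune diabetes arises spontaneously, and from NOD.B10Sn-H2b/J (NOD.B10) mice, which carry another MHC haplotype on the NOD background and do not develop the disease. Each array held the RNA of 1 NOD mouse in Cy5 and, in Cy3, that of 6 pooled female NOD.B10 animals matched for age, with 6 NOD mice at each of 10 days, 4 weeks, 12 weeks and 20 weeks. The labels name no transgene and no treatment other than islet isolation by collagenase, and the blood glucose of the mice is not given in the sources used here. Values are log2(NOD/pool), so 1 is a 2-fold excess in the NOD mouse and a negative value a lower signal than in the pool. A gene passed the test where the adjusted p of the limma fit was under 0.05 and the mean difference at least 2-fold. The labels were read as 1 pool per age, so the test leaves out the spread among NOD.B10 mice, and whatever separates the pools of 2 ages enters each comparison of those ages.

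Beta cells take up glucose through a facilitative transporter and phosphorylate it, and the ATP made from it closes a potassium channel at the cell surface. The cell then depolarises, calcium enters and insulin granules are released. G protein-coupled receptors for gut hormones and fatty acids amplify that release, and a peptide released with insulin acts on neighbouring delta cells, which restrain it.

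Each probe is 60 bases long, and the array files place it on mm9. Sequences of 5 of the 10 member probes are shown, 1 each for 5 members, so that the measured target can be seen; no letter is capitalised, since the whole probe is the target.
Slc2a2 (A_52_P409988): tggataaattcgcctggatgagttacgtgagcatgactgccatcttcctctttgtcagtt
Abcc8 (A_51_P296995): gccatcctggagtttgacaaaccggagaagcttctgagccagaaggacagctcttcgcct
Slc30a8 (A_52_P529022): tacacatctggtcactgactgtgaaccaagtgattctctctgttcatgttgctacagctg
Glp1r (A_51_P275077): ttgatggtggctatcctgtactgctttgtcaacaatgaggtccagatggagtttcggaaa
Ucn3 (A_51_P342327): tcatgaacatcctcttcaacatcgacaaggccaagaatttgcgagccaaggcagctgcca
In the files, this Slc2a2 probe spans chr3:28625253-28625961 and starts at base 1279 of its transcript, and the brighter one, A_51_P185693, lies at chr3:28627016-28627075 and starts at base 2303. The Slc30a8 probe spans chr15:52165154-52166679 and the Glp1r probe chr17:31069561-31073230; both intervals are longer than the probe, as for a probe whose target crosses an intron. Ucn3 was measured at chr13:3940440-3940499, G6pc2 at chr2:69065795-69065854, Kcnj11 at chr7:53353119-53353178 and Ffar1 at chr7:31645724-31645783. For the Abcc8 probes the files give only part of the target, chr7:53359893-53359901 for the bright probe and chr7:53359893-53359916 for the dim one.

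RefSeq promoter sequences on GRCm38.p6 were found for 5 of the 8 members. Those of G6pc2, Slc2a2 and Ucn3 are printed as the 250 bases before the start. The ratios of these 3 fell from 10 days to each later age, as did those of Abcc8 and Slc30a8, which had no entry. Letters are in capitals where they match CAGATG, an E box, or TGCTGAC, the core of the Maf site, on either strand.
G6pc2: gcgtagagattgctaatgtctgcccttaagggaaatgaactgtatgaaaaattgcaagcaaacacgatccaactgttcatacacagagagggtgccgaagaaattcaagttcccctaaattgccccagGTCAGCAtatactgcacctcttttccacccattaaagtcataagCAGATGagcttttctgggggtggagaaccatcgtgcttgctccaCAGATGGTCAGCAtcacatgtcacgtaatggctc
Slc2a2: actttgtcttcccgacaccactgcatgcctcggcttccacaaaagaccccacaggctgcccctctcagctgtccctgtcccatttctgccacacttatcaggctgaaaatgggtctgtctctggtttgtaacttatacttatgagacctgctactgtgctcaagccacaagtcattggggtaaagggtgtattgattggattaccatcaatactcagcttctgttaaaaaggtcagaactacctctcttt
Ucn3: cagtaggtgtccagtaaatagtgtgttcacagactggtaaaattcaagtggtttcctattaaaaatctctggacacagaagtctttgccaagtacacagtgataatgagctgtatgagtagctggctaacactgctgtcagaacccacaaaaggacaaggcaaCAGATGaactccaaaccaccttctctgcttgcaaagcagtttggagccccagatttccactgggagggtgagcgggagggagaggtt
They cover chr2:69219699-69219948, chr3:28697653-28697902 and chr13:3945350-3945599, the last on the minus strand. G6pc2 has a further start in the table, whose window held 0 matches to any motif searched, and which start islets use was not determined here. In the G6pc2 window CAGATG occurred 2 times and TGCTGAC 2 times, of which 1 of each lie side by side without overlap. The Ucn3 window held CAGATG 1 time, and Slc2a2 held neither. The window of Ffar1, whose measured ratio stayed near 0, held each motif 1 time, and that of Glp1r held neither. Among 32851 promoter entries, 14.4% held CAGATG and 3.81% held TGCTGAC. None of the 3 windows held the other motifs searched, on either strand: the TATA box TATAAA (present in 12.4% of all entries), the homeodomain core TAATTA (4.84%), the forkhead core TGTTTAC (3.17%) and the cyclic AMP element TGACGTCA (1.55%). Letters that match a motif are no evidence that a factor binds there.

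At 10 days the means of all 8 members were above the pool and at 4 weeks all 8 were below it. At 12 and 20 weeks 7 of 8 were below it, Ffar1 being the exception. No direction is read for Ffar1 at 10 days, where its probe was well above background in neither channel (mean 0.07, adjusted p = 0.204 in limma). At 12 weeks the sign against the pool depended on the normalization. With median centring in place of loess, G6pc2 (0.37), Abcc8 (0.93), Kcnj11 (0.25), Slc30a8 (0.99) and Glp1r (0.17) lay above the pool, none of them called. The median of all probes tested was 0.388 in that setting, and of these genes only Abcc8 and Slc30a8 lay above it. Counted by brightest probe, 4 of 8 members passed the test as higher at 10 days, where 1.41% of the 25931 probes tested did. At 4 weeks 2 of 8 passed as lower (0.717% of all probes), at 12 weeks 2 of 8 (1.15%) and at 20 weeks 5 of 8 (0.98%). At an adjusted p under 0.05 and any size of difference, 7, 5, 3 and 7 of 8 members differed from the pool at the 4 ages, where 51%, 48.9%, 34.6% and 47% of all probes did. All 6 mice had the same sign in 6, 7, 3 and 7 of 8 members, against 42.1%, 42.8%, 44.6% and 35% of probes. In the main setting the members' median was 1.05, -0.59, -0.24 and -1.31 at the 4 ages, and that of all probes tested was at most 0.0297 from 0.

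**Figure D1:**
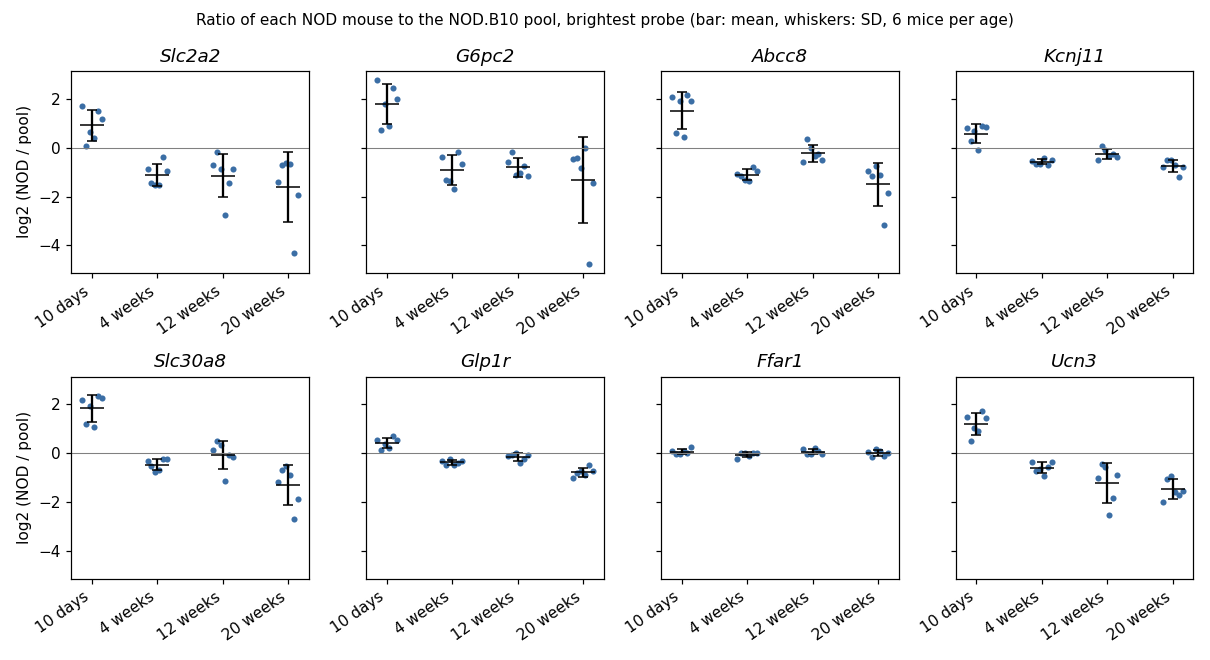
log2(NOD/pool) of each mouse (points) by age for the brightest probe of each member, with the mean (bar) and SD (whiskers) of 6 mice; the horizontal line marks equal signal. The means of all panels change side of the line between 10 days and 4 weeks, Kcnj11 and Glp1r within a smaller range and Ffar1 within the spread between mice.

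Slc2a2 encodes GLUT2, the transporter through which mouse beta cells take up glucose. With its brighter probe it was called lower at 4, 12 and 20 weeks. At 10 days the mice ran from 0.08 through a median of 0.91 to 1.68, at 4 weeks from -1.52 through -1.20 to -0.38, at 12 weeks from -2.76 through -0.89 to -0.18, and at 20 weeks from -4.32 through -1.06 to -0.63. All 6 mice lay above the pool at 10 days and all 6 below it at each later age, so the mice of 10 days overlapped with those of no other age. The means were 0.91 ± 0.63 (SD, n = 6), -1.11 ± 0.46, -1.14 ± 0.89 and -1.62 ± 1.43, that is 2.17-fold, 2.21-fold and 3.07-fold lower than the pool at the last 3 ages (adjusted p = 0.0125, 0.0153 and 0.000672). At 10 days the adjusted p was 0.0365 and the excess 1.88-fold, under the 2-fold limit.

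The second Slc2a2 probe gave 1.35 ± 0.50, -0.25 ± 0.43, -0.41 ± 0.58 and -1.19 ± 0.62 (SD, n = 6), and passed the test at 10 days and 20 weeks (adjusted p = 1.1e-05 and 5.67e-05). Within the same mouse the brighter probe read lower by 0.44 ± 0.17 at 10 days, 0.87 ± 0.16 at 4 weeks and 0.73 ± 0.34 at 12 weeks, in 6 of 6 mice each time. At 20 weeks it read lower by 0.42 ± 0.84, with 2 mice the other way. Both probes thus gave the same order of 10 days against later ages, but the calls at 4 and 12 weeks rest on 1 of the 2.

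G6pc2 encodes the glucose-6-phosphatase catalytic subunit of islets, which removes the phosphate from glucose-6-phosphate and so raises the glucose level at which insulin is released. It ran from 0.74 through 1.89 to 2.76 at 10 days, from -1.69 through -0.997 to -0.18 at 4 weeks, from -1.18 through -0.90 to -0.16 at 12 weeks, and from -4.75 through -0.65 to -0.02 at 20 weeks. As for Slc2a2, all mice of 10 days were above the pool and all others below it. The mean of 1.77 ± 0.82 (SD, n = 6) at 10 days was a 3.41-fold excess (adjusted p = 0.000688). At 4 and 12 weeks the means of -0.93 ± 0.61 and -0.81 ± 0.39 did not pass (adjusted p = 0.0556 and 0.117), and at 20 weeks -1.32 ± 1.74 did (adjusted p = 0.00816).

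Replicate 5 of 20 weeks held the lowest value for both genes. Without it the 20-week mean of G6pc2 was -0.64 and no longer passed, that of Slc2a2 was -1.07 with the brighter probe and still passed, and that of the second Slc2a2 probe was -0.98. This array had the lowest share of probes well above background in the NOD channel, 42.3%, against 47.7% to 64.6% on the other 23; its part in these values was not tested.

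Abcc8 encodes SUR1, the sulfonylurea receptor, and Kcnj11 encodes Kir6.2, the pore; together they form the ATP-sensitive potassium channel. Abcc8 ran from 0.44 through 1.91 to 2.13 at 10 days, from -1.37 through -1.13 to -0.78 at 4 weeks, from -0.57 through -0.30 to 0.35 at 12 weeks, and from -3.15 through -1.15 to -0.77 at 20 weeks. The 12-week mice sat between: they overlapped with no other age, and 5 of 6 were below the pool. The means were 1.51 ± 0.77 (SD, n = 6; adjusted p = 1.54e-05), -1.11 ± 0.22 (adjusted p = 0.000574), -0.23 ± 0.34 (adjusted p = 0.498) and -1.499 ± 0.89 (adjusted p = 2.05e-05). The calls at 10 days, 4 weeks and 20 weeks were 2.85-fold higher, 2.16-fold lower and 2.83-fold lower. The other Abcc8 probe was dim, well above background on 14 NOD and 12 pool arrays of 24, and gave 0.17, -0.32, -0.05 and -0.34. Its pool signal was not well above background on any array of 10 days or 12 weeks, so no direction is read from it at those ages (0.68 at 12 weeks with the scanner ratio).

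Kcnj11 ran from -0.10 through 0.73 to 0.87 at 10 days, from -0.70 through -0.60 to -0.42 at 4 weeks, from -0.51 through -0.31 to 0.05 at 12 weeks, and from -1.20 through -0.76 to -0.50 at 20 weeks. Only 1 mouse of 10 days was below the pool, and all 12 mice of 4 and 20 weeks were. Its means of 0.56 ± 0.39 (SD, n = 6), -0.58 ± 0.11, -0.26 ± 0.20 and -0.76 ± 0.26 had adjusted p of 7.77e-05, 7.18e-05, 0.0492 and 2.26e-06 with differences of 1.47-fold, 1.497-fold, 1.199-fold and 1.69-fold, so that it passed the 2-fold limit at no age. In the main setting the pore and the receptor thus differed in the size of the ratio but had the same sign at each age. With the scanner ratio Kcnj11 gave 1.33, -0.85, -0.77 and -1.54 at the 4 ages, and Abcc8 1.53, -1.32, -0.19 and -1.61. With a normexp offset of 0, which compresses dim probes less, Kcnj11 was 1.08 at 10 days and -1.20 at 20 weeks, and passed at both.

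Slc30a8 encodes ZnT8, which loads zinc into insulin granules. It ran from 1.08 through 2.07 to 2.34 at 10 days, from -0.77 through -0.42 to -0.22 at 4 weeks, from -1.15 through 0.02 to 0.51 at 12 weeks, and from -2.67 through -1.03 to -0.50 at 20 weeks. At 12 weeks 3 of 6 mice were above the pool, and at 10 days all 6 were. The excess at 10 days was 3.56-fold, 1.83 ± 0.56 (SD, n = 6; adjusted p = 6.18e-07). At 4 and 12 weeks it gave -0.46 ± 0.23 and -0.07 ± 0.59 (adjusted p = 0.102 and 0.846), and at 20 weeks it was 2.45-fold lower, -1.29 ± 0.83 (adjusted p = 6.45e-05).

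Glp1r encodes the receptor for glucagon-like peptide-1, the gut hormone that amplifies glucose-stimulated insulin release. It ran from 0.15 through 0.46 to 0.71 at 10 days, from -0.47 through -0.36 to -0.22 at 4 weeks, from -0.39 through -0.10 to 0.02 at 12 weeks, and from -0.999 through -0.77 to -0.49 at 20 weeks. The mice of 20 weeks were lower than those of every other age with no overlap. At 10 days the pool was not well above background on any of the 6 arrays. The NOD level was thus at least 1.34-fold higher there as a point estimate, which leaves out the spread between mice. This bound was set against the lowest signal measured well above background or the probe's own, whichever is higher (measured mean 0.43 ± 0.22 (SD, n = 6), adjusted p = 1.38e-05). At the later ages the means were -0.36 ± 0.10, -0.15 ± 0.15 and -0.77 ± 0.17 (adjusted p = 0.000128, 0.0953 and 6.76e-09), and 1.71-fold lower at 20 weeks. Glp1r had the smallest spread between 20-week mice of the members with a ratio away from 0, and replicate 5 gave its highest value there.

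Ffar1 encodes GPR40, a receptor for long-chain fatty acids that also amplifies insulin release. Its probe was well above background on 5 NOD and 8 pool arrays of 24, and in neither channel at 10 days. The means of 0.07 ± 0.11 (SD, n = 6), -0.05 ± 0.10, 0.07 ± 0.11 and 0.02 ± 0.12 lay within the spread between mice, and the F test over the ages gave an adjusted p of 0.265. A difference in this gene was not detectable at this signal in the main setting. With the scanner ratio it was called lower from 12 to 20 weeks (-1.07, adjusted p = 0.0175) and was -0.62 at 20 weeks (adjusted p = 0.0368).

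Ucn3 encodes urocortin 3, a peptide that beta cells release with insulin and that acts on delta cells to raise somatostatin; in mouse it marks mature beta cells. It ran from 0.51 through 1.23 to 1.72 at 10 days, from -0.94 through -0.60 to -0.34 at 4 weeks, from -2.51 through -0.95 to -0.44 at 12 weeks, and from -1.98 through -1.56 to -0.94 at 20 weeks. All mice of 10 days were above the pool and all others below it, and the mice of 4 and 20 weeks did not overlap. The mean of 1.19 ± 0.44 (SD, n = 6) at 10 days was 2.28-fold higher than the pool (adjusted p = 2.87e-05). At 4 weeks it was 1.51-fold lower, -0.59 ± 0.22 (adjusted p = 0.0163), under the 2-fold limit. At 12 and 20 weeks Ucn3 was 2.31-fold and 2.76-fold lower, -1.21 ± 0.80 and -1.47 ± 0.40 (adjusted p = 5.07e-05 and 2.52e-06).

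Replicate 4 of 12 weeks had the lowest Slc2a2, Ucn3 and Slc30a8 values of its age, -2.76, -2.51 and -1.15. Without it Slc2a2 was -0.82 and Ucn3 -0.95, and neither passed the 2-fold test. Under median centring in place of loess both were near the pool at 12 weeks, -0.06 and -0.17, where the median of all probes was 0.388. The cause was not tested. At 20 weeks, without replicates 5 and 6, 2 of 8 members passed in place of 5, Abcc8 at -1.003 and Ucn3 at -1.39, while Slc2a2 was -0.86, G6pc2 -0.44 and Slc30a8 -0.81.

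The change of ratio from 10 days to the later ages was tested directly, which also removes a constant dye effect. From 10 days to 4 weeks 6 of 8 members fell (3.2% of all probes did), and 7 of 8 had mice that did not overlap (24.9% of probes). Abcc8 fell by 2.62 (SE 0.34; adjusted p = 2.27e-06), G6pc2 fell by 2.70 (SE 0.56; adjusted p = 0.000423), Slc30a8 fell by 2.29 (SE 0.32; adjusted p = 6.57e-06) and Slc2a2 fell by 2.02 (SE 0.50; adjusted p = 0.00212). Ucn3 fell by 1.78 and Kcnj11 fell by 1.14 (adjusted p = 2.4e-05 and 1.67e-06), whereas the measured change of Glp1r was -0.79 (adjusted p = 9.55e-07). Since the 10-day pool was not well above background for Glp1r, this is the least size of that change; it was -1.56 with offset 0, -1.25 with median centring and -2.91 with the scanner ratio, each past the 2-fold limit.

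At 12 weeks against 10 days 5 of 8 fell (3.05% of probes), and 6 of 8 did not overlap (23.1%). Ucn3 fell by 2.39 and G6pc2 fell by 2.58 (adjusted p = 9.01e-07 and 0.000787). With median centring 1 of the 5 calls was kept, Ucn3 at -2.09, while G6pc2 was -2.11 (adjusted p = 0.0656), Slc2a2 -1.73, Slc30a8 -1.60 and Abcc8 -1.30. The second Slc2a2 probe stayed called in that setting (-1.56, adjusted p = 0.0386 in limma). The scanner ratio, a normexp offset of 0 and the deposited table each called 7 members lower in place of 5. Against 20 weeks the contrast was widest: 7 of 8 fell (4.08% of probes) and 7 of 8 did not overlap (24.6%). Slc30a8 fell by 3.13 (95% interval -3.79 to -2.46), G6pc2 fell by 3.09 (-4.25 to -1.93), Abcc8 fell by 3.01 (-3.71 to -2.31) and Ucn3 fell by 2.65 (-3.23 to -2.07). For Glp1r the measured change of -1.20 (95% interval -1.40 to -1.01) is again the least size as a point estimate, with -2.24 under offset 0 and -3.68 under the scanner ratio. Ffar1 differed by -0.05 (-0.19 to 0.09).

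Among the later ages the members moved less. Between 4 and 12 weeks 0 of 8 passed in limma, where 4.91% of probes did in either direction, and 4 of 8 had an unadjusted p under 0.05 (47.9% of all probes did). Abcc8 was higher by 0.89 at 12 weeks than at 4 weeks (adjusted p = 0.0425) with no overlap between mice, 1 of 8 members against 23% of probes, while Ucn3 differed by -0.61 (95% interval -1.19 to -0.03; adjusted p = 0.0858). Abcc8 passed as higher at 12 weeks with the scanner ratio (1.13), with offset 0 (1.04) and with the deposited table (1.13). Median centring called Abcc8 (2.29), Kcnj11 (1.12) and Slc30a8 (1.80) higher, where the median of all probes was 0.557. Between 4 and 20 weeks 0 of 8 passed (0.937% of probes lower), and 3 of 8 had an unadjusted p under 0.05 (39.8% of all probes); Ucn3 differed by -0.87 and Glp1r by -0.41, and these 2 of 8 did not overlap (8.45%). From 12 to 20 weeks 2 of 8 fell (0.336% of probes): Abcc8 fell by 1.27 (adjusted p = 0.0084) and Slc30a8 fell by 1.23 (adjusted p = 0.00776). For these 2 genes the values without replicates 5 and 6 of 20 weeks were -0.78 and -0.74, and without replicate 5 alone -0.94 and -0.95, which do not pass. Abcc8 and Glp1r did not overlap between those ages (11.4% of probes).

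One slide held 2 mice of 10 days and 2 of 4 weeks, and another 2 mice of 12 and 2 of 20 weeks; within them the difference can be read without a slide effect. On the first the change from 10 days to 4 weeks was -2.48 for Slc2a2, -3.06 for G6pc2, -3.16 for Abcc8, -2.71 for Slc30a8 and -2.10 for Ucn3, each larger than over all mice. On the second, from 12 to 20 weeks, Abcc8 gave -0.66 and Slc30a8 -0.79, smaller than over all mice. With slide as a block, the brighter Slc2a2 probe lost its call from 10 days to 4 weeks (adjusted p = 0.0536) and Glp1r gained one (-1.03, adjusted p = 0.000242), and from 12 to 20 weeks Abcc8 and Slc30a8 both lost the call (adjusted p = 0.525 and 0.423). The other slides held 1 age each, so that age and slide cannot be told apart there.

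The ratio has 2 parts, and the part that moved most from 10 days to the later ages was the pool. From 10 days to 4 weeks the log2 intensity of the pool channel differed by 2.63 for Slc2a2, 2.99 for G6pc2, 3.06 for Abcc8, 2.86 for Slc30a8 and 2.94 for Ucn3. The NOD channel differed by 0.61, 0.29, 0.43, 0.57 and 1.16 for the same genes. That the signed pool change exceeded the NOD change in 8 of 8 members at each later age only restates that their ratios fell. By size, the NOD change ran from 0.12 to 1.16, -0.20 to 0.26 and -0.39 to 0.65 at the 3 later ages. The pool change ran from 0.25 to 3.06, 0.06 to 2.38 and 0.11 to 3.19. The pool rose at least 2-fold in 7, 5 and 7 members, and the NOD channel in 1, 0 and 0. Ffar1 is among the 8, although at 10 days it was well above background in neither channel. Over all probes tested the pool change was the larger one, that is the ratio fell, in 53.7%, 50.7% and 53.2%. The pool was at least 2-fold up in 4.77%, 3.34% and 4.81% of probes, and the NOD channel in 1.74%, 3.16% and 2.9%. Ucn3 illustrates it: the NOD channel read 9.18 ± 0.60 (SD, n = 6 arrays), 10.34 ± 0.24, 9.17 ± 0.91 and 9.72 ± 0.38 at the 4 ages, and the pool 7.996 ± 0.24, 10.94 ± 0.07, 10.37 ± 0.12 and 11.18 ± 0.13. With 1 pool per age these pool values are arrays of 1 RNA sample and were not tested. In RNA of whole islets, fewer beta cells and less RNA per beta cell cannot be told apart.

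**Figure D2:**
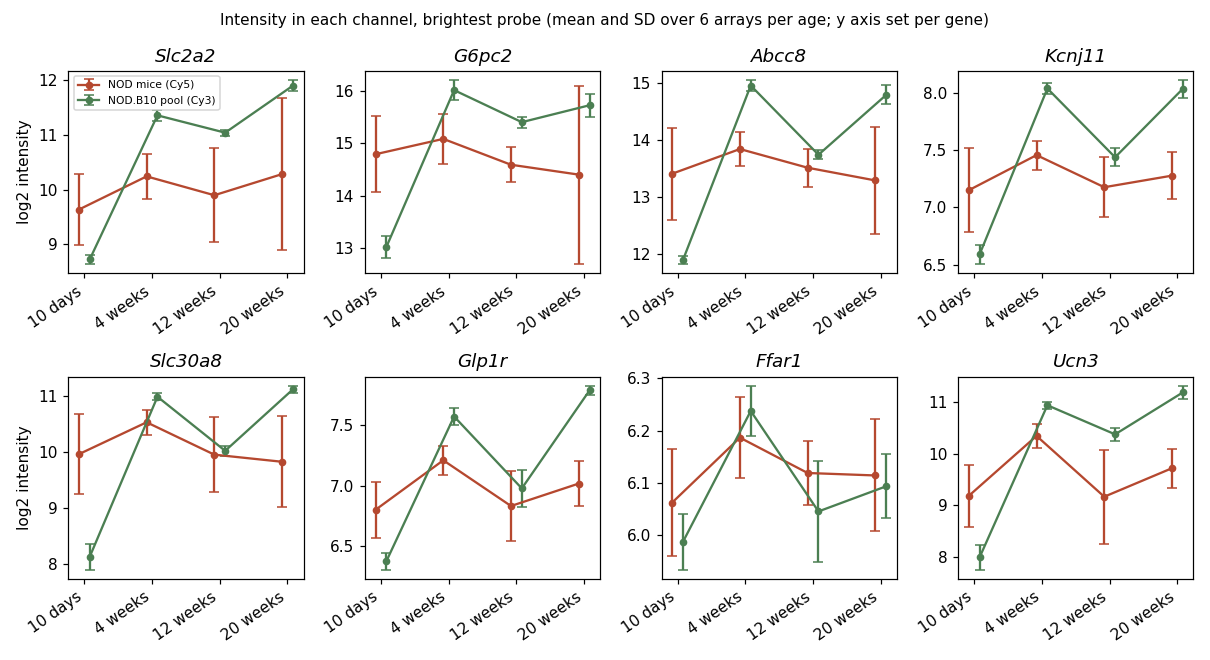
log2 intensity in the NOD (Cy5) and pool (Cy3) channels by age for the brightest probe of each member, mean and SD over 6 arrays, on a y axis set per gene, so panels are not compared with each other. The pool starts below the NOD mice at 10 days and lies above them at 4 weeks in all panels, and at 12 and 20 weeks in all but Ffar1. For Ffar1 no direction is read at 10 days, where neither channel was well above background.

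Other genes expressed in beta cells shifted in the same direction. A list of 15 genes that includes insulin, its processing enzymes and beta cell transcription factors, of which 14 were tested, averaged 1.23 ± 0.54 (SD, n = 6), -0.90 ± 0.25, -0.47 ± 0.24 and -1.08 ± 0.77 per mouse at the 4 ages. Of the 14, 10 were called higher at 10 days, and 5, 2 and 9 lower at 4, 12 and 20 weeks. Ins2 gave 1.83 ± 0.86, -0.72 ± 0.52, -1.24 ± 0.39 and -1.25 ± 1.30, and Ins1 1.24 ± 0.93, -1.49 ± 0.44, -1.05 ± 0.33 and -1.72 ± 1.73. Replicate 5 of 20 weeks was the lowest mouse on this list too, at -2.54. The genes of the list were not alike: at 10 days they ran from 0.20 for Nkx2-2 to 2.20 for Chga. Pdx1 and Mafa gave 0.29 and 0.43 there, and Chgb, Isl1 and Pax6 1.95, 1.80 and 1.67. The list was not limited to genes particular to beta cells among the endocrine cells of the islet. A member's place relative to it is thus not a measure against beta cell content alone.

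The list mean was then subtracted from each member within each mouse. At 12 weeks Ucn3 lay 0.74 ± 0.67 below the list and Slc2a2 0.67 ± 0.76 below it, in 6 of 6 mice each, whereas the second Slc2a2 probe lay 0.05 ± 0.46 above it. Replicate 4 stood at -1.90 and -2.14 relative to the list for Ucn3 and the brighter Slc2a2 probe, and without it the means were -0.51 and -0.38, with 5 of 5 mice below. G6pc2 lay 0.34 ± 0.27 below it in 6 of 6. Slc30a8 lay above the list by 0.61 ± 0.07 at 10 days and 0.44 ± 0.09 at 4 weeks in all mice, and by 0.40 ± 0.47 at 12 weeks in 5 of 6, but 0.22 ± 0.26 below it at 20 weeks. G6pc2 lay 0.54 ± 0.33 above the list at 10 days in 6 of 6 mice, and Abcc8 0.21 ± 0.14 below it at 4 weeks and 0.42 ± 0.24 below it at 20 weeks, each in 6 of 6. Glp1r and Kcnj11 lay 0.80 ± 0.35 and 0.67 ± 0.20 below the list at 10 days. With the scanner's own log ratio these became 0.84 above and 0.12 below. Their place at that age thus depends on the treatment of dim signal. Brighter members also shifted with that ratio. G6pc2 was 0.18 above the list at 10 days and 0.21 below it at 12 weeks, each in 4 of 6 mice. Abcc8 was 0.16 below it at 20 weeks in 4 of 6, and Slc30a8 0.01 below. Ucn3 and the brighter Slc2a2 probe at 12 weeks and Abcc8 at 4 weeks stayed below it in 6 of 6. Slc30a8 stayed above it at 10 days and 4 weeks in 6 of 6, and the second Slc2a2 probe became 0.20 below at 12 weeks. These differences carry no test.

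**Figure D3:**
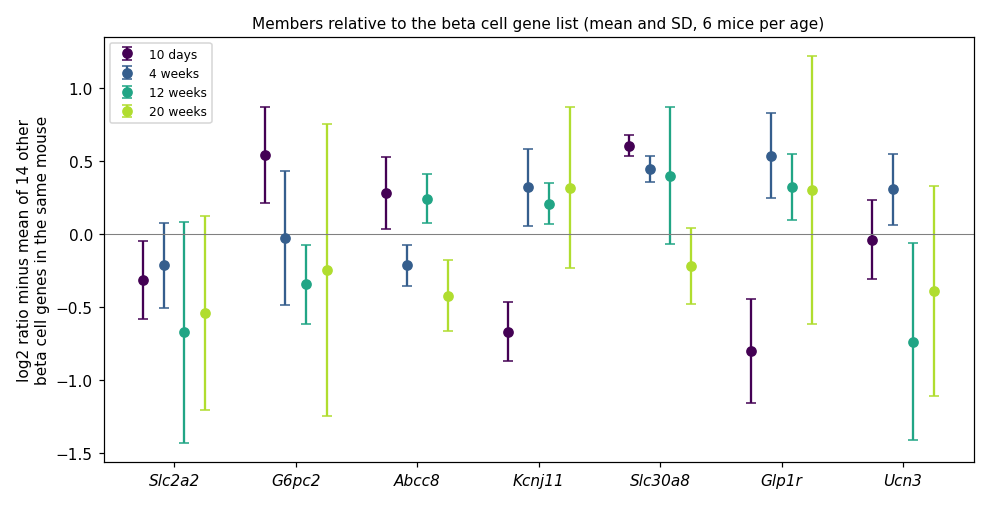
Log2 ratio of each member minus the mean of the 14 tested genes of the beta cell list in the same mouse, mean and SD of 6 mice, coloured by age. The list is not limited to genes particular to beta cells. Ffar1 is left out as it was dim. Ucn3 and the brighter Slc2a2 probe lie below 0 at 12 weeks, and Slc30a8 lies above 0 at the first 3 ages.

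Some genes of the wider pathway lists passed the test. Of all probes tested, 1.41% passed as higher at 10 days and 0.717%, 1.15% and 0.98% as lower at 4, 12 and 20 weeks. At an unadjusted p under 0.05 in limma, 56.3%, 54.8%, 43.8% and 52.9% of them differed at the 4 ages. From 10 days to 4 weeks 2 of 16 glucose metabolism genes, 6 of 19 channels and 5 of 15 receptors were called lower. So were 1 of 14 signalling genes, 0 of 8 zinc transporters and 3.2% of all probes. Of 16 genes of glucose metabolism, Gpd2, the mitochondrial glycerol phosphate dehydrogenase, was called higher at 10 days (1.03 ± 0.49) and none was called at 4, 12 or 20 weeks in limma, with 9, 9 and 14 at an unadjusted p under 0.05; the list medians were 0.09, -0.13, -0.15 and -0.21. Among 19 channels tested, Trpm5, a calcium-activated cation channel, was 1.38 ± 0.43 at 10 days, -1.40 ± 0.72 at 12 weeks and -1.27 ± 0.47 at 20 weeks, and the sodium channel gene Scn8a was -1.08 ± 0.20 at 4 weeks. The channel list had medians of 0.25, -0.26, -0.06 and -0.37. Trpm5 was also the gene whose ratio followed Ucn3 most closely over the 24 arrays.

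Of 15 receptors tested, 3 were called higher at 10 days, Gipr (the receptor for the other incretin, 1.15 ± 0.40), Ffar4 (1.02 ± 0.27) and P2ry1 (1.24 ± 0.65), while 3 were called lower at 4 weeks and 3 at 20 weeks. Adra2a, the adrenergic receptor that restrains insulin release, was -1.48 ± 0.22 at 4 weeks and -1.41 ± 1.03 at 20 weeks. Crhr1, a receptor for corticotropin-releasing hormone, was -1.04 ± 0.16 and -1.36 ± 0.26 at these ages, and P2ry1 -1.14 ± 0.29 at 4 weeks and Gipr -1.01 ± 0.65 at 20 weeks. At 12 weeks 0 of 15 passed in limma, with 7 at an unadjusted p under 0.05, and the list medians were 0.14, -0.16, -0.00419 and -0.23.

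Among 14 genes of cyclic AMP and G protein signalling, Gnas and Rgs2 were higher at 10 days (1.22 ± 0.36 and 1.07 ± 0.30). Rgs2 was higher at 12 and 20 weeks as well (1.32 ± 0.36 and 1.02 ± 0.59), against the direction of the members, and Rgs4 was lower at 12 weeks (-1.04 ± 0.38). At 4 weeks 0 of 14 passed in limma, with 7 at an unadjusted p under 0.05, and the medians were 0.11, -0.18, 0.01 and -0.18. Of 8 zinc transporters other than Slc30a8 none was called at any age in limma, with 4, 4, 3 and 5 at an unadjusted p under 0.05 and medians of -0.03, 0.01, -0.11 and -0.12.

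As a description, the 3 genes most like each member were taken by Pearson's r of the ratios over 24 arrays among 15005 genes; the arrays of an age share their pool. They were Fkbp1b, Sytl4 and Ica1l for Slc2a2 (r from 0.972 to 0.979), Ins1, 1700086L19Rik and Scg2 for G6pc2 (0.977 to 0.978), Slc12a5, Baiap3 and Ush1c for Abcc8 (0.987 to 0.992) and Cln6, Asphd1 and Btbd17 for Kcnj11 (0.968 to 0.975). For Slc30a8 they were Frzb, Plut and Pax6 (0.982 to 0.987), for Glp1r Smpd2, Qdpr and Atp6ap1 (0.959 to 0.964), and for Ucn3 Trpm5, Uap1l1 and Gm10941 (0.961 to 0.975). Ffar1 reached at most 0.716.

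Markers of other cell types moved with age as well. As background to the counts below, 841, 594, 737 and 1091 of the 25931 probes tested passed in either direction at the 4 ages. The mean of 8 T cell genes per mouse was 0.06 and 0.25 at 10 days and 4 weeks and 1.86 and 2.33 at 12 and 20 weeks (ranges -0.72 to 1.28, 0.16 to 0.41, 1.51 to 2.40 and 1.66 to 2.94), with 6 of 8 genes called higher at each of the last 2 ages. The 6 stellate cell and fibroblast genes averaged -1.96 at 10 days, where all 6 were called lower, and 1.19 at 20 weeks; 9 acinar genes averaged 1.51 at 4 weeks, where 8 were called higher, and 0.04, 0.13 and 0.01 at the other ages. At 20 weeks the acinar mean was 2.07 in replicate 5 and 1.47 in replicate 6, and between -2.41 and -0.19 in the other 4 mice; these are the 2 mice without which 3 of the 5 member calls at 20 weeks were lost. The B cell list averaged -0.91, -0.09, 1.44 and 1.56, with 4 of 5 genes called higher at 12 and at 20 weeks, and the 4 macrophage genes -0.64, -0.21, 0.96 and 1.55, with 1 and 2 called higher. Endothelial genes lay between -0.84 and 0.18, duct genes between -0.85 and 0.38, and the 2 PP cell genes were 2.74 at 10 days, both called higher, and -0.72, 0.31 and -0.55 later. The alpha cell list averaged 0.66, -0.21, 0.16 and -0.35, and the delta cell list 0.81, -0.43, 0.04 and -0.33, the same signs as the members' median at 10 days, 4 weeks and 20 weeks. Without replicate 5 the 20-week means were -0.23 for alpha, -0.06 for delta and 0.04 for PP cell genes. The hepatocyte genes, which islets should lack apart from Ttr, lay between -0.27 and 0.38. The part of these other cells in the members' ratios was not tested.

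**Figure D4:**
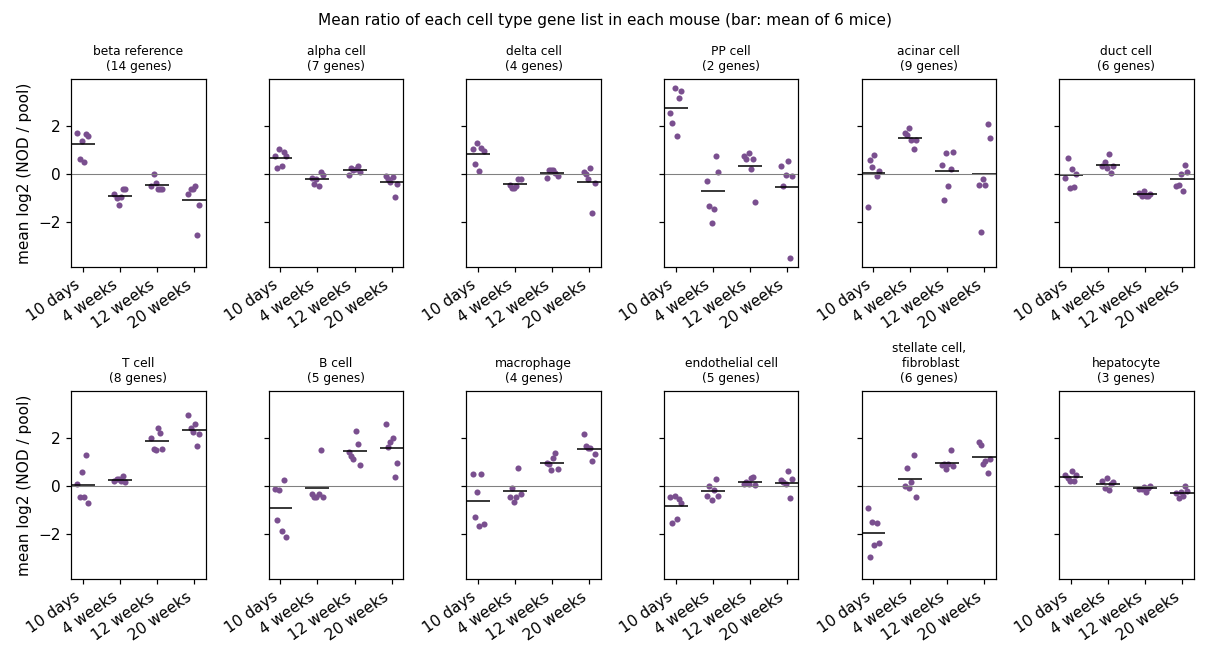
Mean log2(NOD/pool) of each cell type gene list in each mouse (points) by age, with the mean of 6 mice (bar). The beta cell list is above 0 at 10 days and below it later, the T cell list is above 0 at 12 and 20 weeks, and the stellate cell list is below 0 at 10 days.

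All arrays had the NOD mouse in Cy5, per the labels. Between arrays of 10 days and 20 weeks the correlation over all probes ran from -0.505 to 0.152, against 0.402 to 0.866 among the 10-day arrays, and the direction was kept as labelled.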

How the data were processed

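Intensities were read from the deposited scanner files, produced, per the file headers, by Agilent's Feature Extraction 10.7.3.1 with probe positions on mm9. The deposited log10 ratio of the scanner software and the authors' deposited log2 value table were used as alternatives, whose 22122 rows hold 9 of the 10 member probes. Of its values, 99.8% lay within 0.01 of the scanner ratio turned to log2, so scale and direction are the scanner's, and its column medians ran from -0.181 to 0.086, that is, uncentred. In R 4.3.3 with limma 3.58.1, mean spot signals were background corrected by normexp (offset 50) and normalized by loess within each array; spots with an outlier flag were set to missing (65 ratios among probes tested). Of 41174 probes, 25931 were kept, each bright enough (well above background, in either channel) on 6 or more arrays. One mean per age was fitted over 24 arrays, with all 6 contrasts between ages, and p-values were adjusted by Benjamini-Hochberg over all probes tested. A gene is represented by its brightest probe. The genes named from other lists are up to 3 called genes per list, age and direction, plus Ins1 and Ins2; a further gene that the rule names is not reported here. The members and lists were chosen with earlier results of these data known. The fit was tested on simulated data. Channel levels were quantile-normalized on average intensity (Aquantile). Iapp was not found by name. The replicates are separate NOD mice.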

Additional observations from a re-analysis of the deposited data

Results flagged for a closer look

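A Dixon test on each probe and age (40 groups of 6 mice; chance marks about 1 group in 20) picked out replicate 5 of 20 weeks, which stood far below the other 5 mice for G6pc2 at -4.75 and for Slc2a2 (brighter probe) at -4.32.

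The ratio of many members differed between ages by the test of the difference itself. From 10 days to 4 weeks the differences were -2.02 and -1.60 for the 2 Slc2a2 probes, -2.70 for G6pc2, -2.62 for Abcc8, -1.14 for Kcnj11, -2.29 for Slc30a8 and -1.78 for Ucn3. From 10 days to 12 weeks they were -2.05 and -1.76 for Slc2a2, -2.58 for G6pc2, -1.74 for Abcc8, -1.90 for Slc30a8 and -2.39 for Ucn3. From 10 days to 20 weeks they were -2.53 and -2.54 for Slc2a2, -3.09 for G6pc2, -3.01 for Abcc8, -1.32 for Kcnj11, -3.13 for Slc30a8, -1.20 for Glp1r and -2.65 for Ucn3. From 12 to 20 weeks they were -1.27 for Abcc8 and -1.23 for Slc30a8. Each includes any difference between the pools of the ages. The Glp1r value is the least size of that change as a point estimate, since its 10-day pool was not well above background.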

How the results depend on the processing

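No member value that passed the test in the main setting changed sign under any alternative tried. Keeping outlier spots, testing all probes, 1 probe per gene and slide as a random block changed no member call. With the scanner's log ratio 7 members were higher at 10 days in place of 4 and 1 was lower from 4 to 20 weeks in place of 0, and the probes called at 10 days, 4, 12 and 20 weeks were 4296, 2797, 4639 and 4084 in place of 841, 594, 737 and 1091. For 10 days against 4, 12 and 20 weeks they were 6485, 6468 and 8312 in place of 1900, 1816 and 2687, and for 4 against 12, 4 against 20 and 12 against 20 weeks 6201, 2974 and 4078 in place of 1272, 1024 and 517. In the same order the deposited value table gave 3497, 1986, 3751, 3087, 5164, 5547, 6576, 4920, 2176 and 3078 probes, and also 7 members at 10 days and 1 from 4 to 20 weeks. A normexp offset of 0 gave 2244, 1250, 1936, 2275, 3974, 4078, 5563, 3207, 2045 and 1467 probes. At 20 weeks the scanner ratio, the deposited table, offset 0 and median centring each gave 7 members lower in place of 5. From 10 days to 4 weeks each of them gave 7 in place of 6. Median centring moved the median of all probes to 0.337, -0.116, 0.388 and -0.159 at the 4 ages. That median was 0.557 from 4 to 12 weeks and -0.589 from 12 to 20 weeks. Median centring gave 0 members at 12 weeks in place of 2, 1 from 10 days to 12 weeks in place of 5 and 7 from 12 to 20 weeks in place of 2. The probes called were 3614, 894, 5162 and 2099 at the 4 ages, 7474 and 8950 from 10 days to 4 and 20 weeks, 8586 from 4 to 12 weeks and 9340 from 12 to 20 weeks. The causes were not tested.

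Chosen after seeing the data, slide as a fixed block left 0 of the 2 members from 12 to 20 weeks, and leaving out replicates 4 and 5 of 12 weeks left 0 of 2 at that age. Without replicates 5 and 6 of 20 weeks 2 members remained called there in place of 5 and 0 from 12 to 20 weeks, and 1826 probes were called from 4 to 20 weeks. Leaving out 1 mouse at a time gave 4 to 5 members at 10 days, 2 to 3 at 4 weeks, 0 to 2 at 12 weeks, 4 to 5 at 20 weeks and 0 to 2 from 12 to 20 weeks. With the replicate number as a block the member counts of the 6 contrasts were 6, 5, 7, 0, 0 and 2 as without it; same-numbered arrays had a median correlation of -0.1 over 36 pairs (-0.399 to 0.618), so the numbers do not pair the mice. Dim probes grew with less compression: Glp1r at 10 days went from 0.43 to 1.05 with offset 0 and 2.29 with the scanner ratio.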
